A study of Mus musculus with 12 samples.

Results

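The genes described here are 10 genes of axon growth and of the Nogo receptor system, namely *Rtn4*, *Rtn4r*, *Rtn4rl1*, *Rtn4rl2*, *Lingo1*, *Nrep*, *Gap43*, *Sprr1a*, *Stmn4* and *Basp1*. They were taken by gene symbol from a table of 54833 genes, in which each had 1 row. The set was chosen by gene names with results of the same libraries in view, in which the counts of *Nrep* and *Rtn4r* were lower in sham tissue of the older animals. That age difference is therefore given as a description with no test. The tissue came from the ipsilateral caudate putamen of male wild-type C57BL/6 mice, around the hematoma in ICH and at the matching place in sham controls, 24 h after surgery. The young animals had an age of 8 to 10 weeks and the aged animals one of 20 to 22 months. Intracerebral hemorrhage (ICH) had been induced with type IV collagenase, an enzyme that breaks down the basement membrane of vessels, infused into the right basal ganglia, and sham controls received sterile saline in its place. The 4 groups (young sham, young ICH, aged sham, aged ICH) had 3 libraries each, every one made from a pool of 2 to 3 mice, so that *P* values measure the spread between pools.

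Axons of the adult brain meet inhibitory proteins on myelin. *Rtn4* encodes Nogo, a reticulon protein of oligodendrocytes and neurons, and *Rtn4r* encodes the Nogo receptor, a protein tethered to the outer neuronal membrane that also binds the myelin proteins encoded by *Mag* and *Omg*. The receptor has no part inside the cell and passes its signal through partners such as the products of *Lingo1*, *Ngfr* and *Tnfrsf19* to the GTPase RhoA and its kinases, which stall the growth cone. *Rtn4rl1* and *Rtn4rl2* encode related receptors. The other 5 genes belong to the growing axon: *Gap43* and *Basp1* encode membrane-bound proteins of the growth cone, *Stmn4* a stathmin that acts on microtubules, *Nrep* a small protein named for its link to neuronal regeneration, and *Sprr1a* a small proline-rich protein known from skin and from regenerating sensory neurons.

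Total counts ran from 28410896 to 37785160 per library, and all 10 genes were among the 21495 genes that passed the filter on low counts. Striatal neuron markers were present in every library, with a summed CPM (counts scaled to the size of the library) of 325 to 3024, and the marker with the highest level was *Penk*, a neuropeptide precursor of striatal neurons, at 179 FPKM (fragments scaled by gene length and library size) in young sham. Cortical neuron markers, led by *Slc17a7*, the vesicular glutamate transporter of cortical neurons, were also present, at 784 to 1514 CPM. Choroid plexus markers differed between libraries of a group: they summed to 3929 CPM in young ICH replicate 3 and to 1509 and 1905 CPM in aged ICH replicates 1 and 2, against 7.92 to 461 CPM in the other 9 libraries. In bulk tissue, fewer cells of a type and less RNA per cell cannot be told apart, and this holds for every difference below.

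Promoter windows were found for 6 of the 10 genes in the RefSeq table of build GRCm38.p6, and 2 stretches are printed because *Sprr1a* and *Lingo1* had the largest called changes after ICH. Each is read on the gene's own strand, ends before the first annotated exon base or start site, and shows in capitals the matches to 4 motifs searched on both strands: AP-1 (TGANTCA), CRE (TGACGTCA), C/EBP (TTGCGCAA) and STAT (TTCNNNGAA). The stretch of *Sprr1a* lies at chr3:92485896-92486131 (minus strand), directly upstream of the gene at chr3:92483952-92485895. The stretch of *Lingo1* lies at chr9:56635649-56635898 (minus strand), inside an intron of the longer transcripts of the gene (chr9:56618475-56796468) and upstream of the start of its short transcript.
Sprr1a: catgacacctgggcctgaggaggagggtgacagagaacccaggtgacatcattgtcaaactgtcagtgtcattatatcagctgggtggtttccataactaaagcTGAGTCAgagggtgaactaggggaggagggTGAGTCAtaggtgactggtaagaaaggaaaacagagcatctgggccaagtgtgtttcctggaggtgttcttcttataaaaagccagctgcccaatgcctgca
Lingo1: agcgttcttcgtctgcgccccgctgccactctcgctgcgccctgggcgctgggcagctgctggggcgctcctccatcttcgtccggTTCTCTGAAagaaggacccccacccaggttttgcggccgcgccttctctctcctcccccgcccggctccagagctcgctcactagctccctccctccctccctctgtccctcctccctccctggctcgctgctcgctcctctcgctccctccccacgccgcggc
The 2 capital runs of *Sprr1a* are AP-1 matches that begin 146 and 116 bases before the start site. AP-1 matches stood in 7.81% of 32851 windows of 300 bases, CRE matches in 1.79%, C/EBP matches in 0.183% and STAT matches in 8.3%. The capital run of *Lingo1* is a STAT match that begins 164 bases before the start site. None of the 4 motifs was found in the window at the far start of *Lingo1* or in those of *Rtn4r*, *Rtn4rl2* and *Basp1*, and of the 3 *Rtn4* windows 1 held an AP-1 match. A match of letters is a description and not a site of binding.

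Compared per length, the 10 genes spanned a wide range of levels. In young sham tissue *Basp1* had the highest level at 127 ± 16.2 FPKM (SD, *n* = 3), followed by *Rtn4* at 109 ± 2.96, *Gap43* at 97.4 ± 11.7 and *Stmn4* at 86.4 ± 4.09. The libraries of *Rtn4* overlapped those of *Gap43*, and those of *Gap43* overlapped those of *Stmn4*, so these neighbours are not separated by their spread. All libraries of *Rtn4* lay above those of *Stmn4* (at least 105 against at most 89.8 FPKM). *Lingo1* stood at 56.2 ± 7.37 FPKM. *Nrep* (29.2 ± 6.02) and *Rtn4r* (25.9 ± 5.21) overlapped each other. Below them came the receptor relatives *Rtn4rl1* at 16.6 ± 1.60 and *Rtn4rl2* at 9.99 ± 1.31 FPKM, and *Sprr1a* was last at 0.187 ± 0.138. Over all 12 libraries, *Basp1* lay at the 99.0th percentile of the tested genes by FPKM, *Rtn4* at the 98.8th, *Rtn4r* at the 88.7th and *Sprr1a* at the 28.5th. The order stayed much the same in the other groups. In both aged groups the mean of *Rtn4r* was above that of *Nrep*, the reverse of the young groups, although the libraries of these 2 genes overlapped in both.

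**Figure D1:**
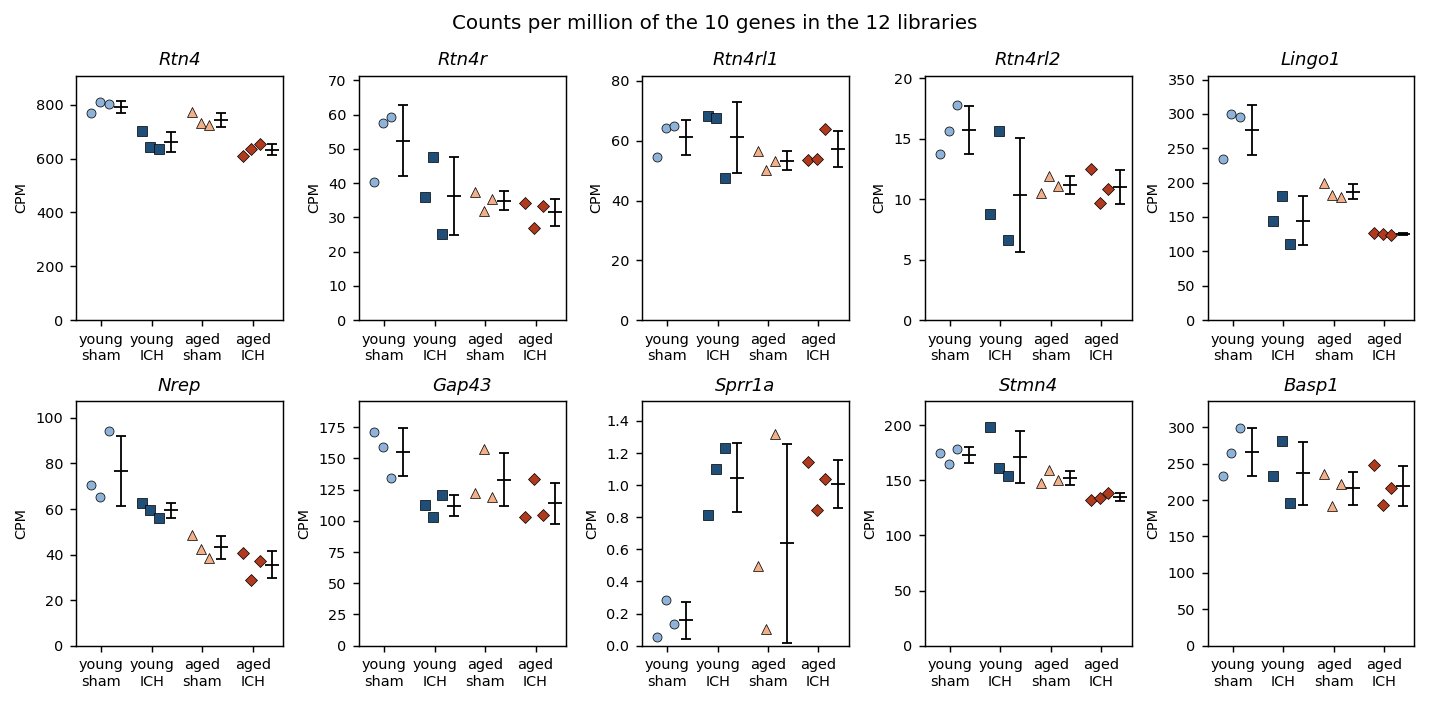
Level of each gene in CPM (counts scaled to library size) in the 12 libraries, with 1 panel a gene and an axis from 0. Points are libraries (circles young sham, squares young ICH, triangles aged sham, diamonds aged ICH) and the bar beside each group is the mean ± SD of 3 libraries; *Lingo1* fell from 277 to 145 CPM after ICH in young tissue, and *Sprr1a* was at 0.158 CPM in young sham and 1.05 in young ICH.

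Among the 8 genes tested after ICH in young mice, *Sprr1a* rose and *Lingo1*, *Gap43* and *Rtn4* fell. In aged mice *Lingo1* and *Rtn4* fell, and no gene of the set rose. With edgeR's quasi-likelihood test and Benjamini-Hochberg adjustment over all 21495 genes, the young comparison called 1 of 8 higher and 3 of 8 lower, where 19.1% of all genes were called, 9.89% higher and 9.23% lower. The aged comparison called 0 of 8 higher and 2 of 8 lower, beside 7.00% and 6.15% of all genes, 13.2% together. The count of genes that rose in aged tissue was also 0 with DESeq2 and at edgeR's unadjusted *P* under 0.05. The median log2 fold change of all 10 genes was -0.32 in young and -0.16 in aged tissue, and that of all tested genes was 0.02 and 0.00184. *Nrep* and *Rtn4r* have no test here, because their sham libraries were used to choose them. The medians of the 10 genes include these 2 and are a description only.

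**Figure D2:**
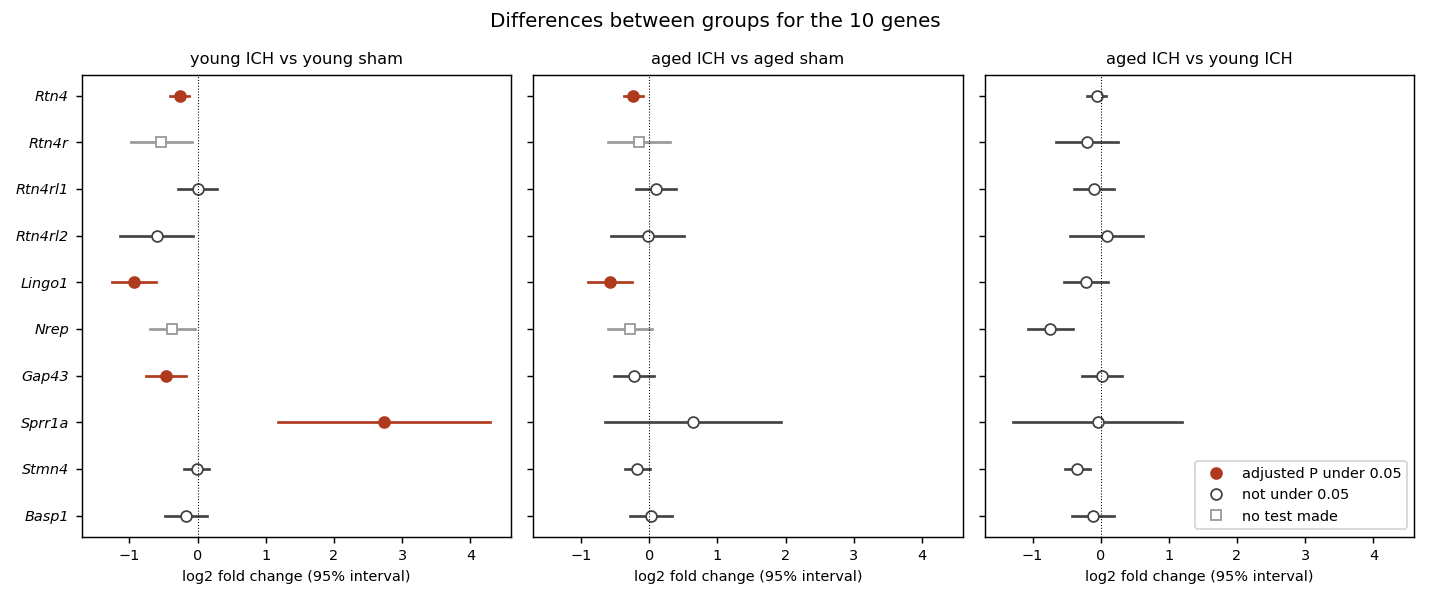
Log2 fold change of each gene (point) with its 95% interval (line) in 3 comparisons. Filled circles had an adjusted *P* under 0.05 with edgeR, open circles did not, and open squares had no test; 4 genes are filled in the young comparison, 2 in the aged comparison and 0 between the ICH groups.

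*Rtn4*, the ligand, fell by a small and even amount. Its CPM values were 769, 809 and 803 in young sham, 703, 643 and 636 in young ICH, 775, 731 and 726 in aged sham and 612, 635 and 656 in aged ICH. The ICH libraries lay below the sham libraries at both ages with no overlap, as for 16.5% of all genes in young and 17.3% in aged tissue. The log2 fold change was -0.26 ± 0.06 (SE; edgeR adjusted *P* = 0.0159) in young and -0.23 ± 0.06 (edgeR adjusted *P* = 0.0371) in aged tissue, that is 0.833-fold and 0.852-fold. The call in young tissue held under 14 of 20 alternatives and was lost without young sham replicate 2 (adjusted *P* = 0.0648) or 3 (0.0522). The call in aged tissue held under only 6 of 20: it was lost without any one of the 6 aged libraries, and without young sham replicate 2 or 3, with an adjusted *P* up to 0.152. The row counts all transcripts of *Rtn4* together, so the long and short Nogo forms were not separated, and 1284 exonic bases are shared with *Eml6* on the opposite strand, which had 682 to 1050 counts against at least 18768 for *Rtn4*.

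Over the 12 libraries *Rtn4* ran with the summed pan-neuronal markers (*r* = 0.88, and 0.64 with group means removed) and against the summed endothelial (-0.95 and -0.80) and neutrophil markers (-0.95 and -0.69), whose sums are given with *Lingo1*, here and with *Sprr1a*. Endothelial markers (4 of 4 higher in young and 3 of 4 in aged tissue, led by *Cldn5* of tight junctions) summed to 152 to 192 CPM in young sham, 235 to 267 in young ICH, 189 to 221 in aged sham and 237 to 283 in aged ICH. Oligodendrocyte markers, led by *Mbp* of compact myelin, had 4 of 9 lower in aged tissue and 0 of 9 called in young tissue by edgeR (0 also with DESeq2 and at an unadjusted *P* under 0.05), with sums of 4997 to 8564, 5854 to 7690, 5446 to 7070 and 4375 to 5089 CPM in the same order of groups. *Rtn4* had *r* = 0.29 with that sum, and -0.47 with group means removed. The part of these cell types in the *Rtn4* difference was not tested.

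On a list of 5 other myelin and reticulon genes, 3 fell in young tissue. They were *Omg*, the oligodendrocyte myelin glycoprotein (log2 fold change -0.55 ± 0.10, edgeR adjusted *P* = 0.0038), and the reticulons *Rtn1* (-0.40 ± 0.09, adjusted *P* = 0.0131) and *Rtn3* (-0.30 ± 0.10, adjusted *P* = 0.046). In aged tissue 1 of the 5 fell, again *Omg* (-0.46 ± 0.10, adjusted *P* = 0.012). *Mag*, the myelin-associated glycoprotein, was not called by edgeR or DESeq2, at 0.13 in young and -0.22 in aged tissue. The list's median was -0.30 in young and -0.21 in aged tissue.

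*Rtn4r*, the Nogo receptor, spread widely between the libraries of the young groups. It read 40.3, 57.5 and 59.4 CPM in young sham, 35.8, 47.7 and 25.1 in young ICH, 37.5, 31.8 and 35.4 in aged sham and 34.2, 26.9 and 33.3 in aged ICH. The aged sham libraries lay below all young sham libraries, while sham and ICH overlapped at both ages. As a description with no test, the log2 difference of aged sham from young sham was -0.59, that of young ICH from young sham -0.53 and that of aged ICH from aged sham -0.15. Without young ICH replicate 3, the library with the high choroid plexus markers, the young ICH difference was -0.33, and without young ICH replicate 2 it was -0.78. Between the 2 ICH groups the difference was -0.20 (95% interval -0.65 to 0.25, edgeR adjusted *P* = 0.80), and the groups overlapped. The ICH libraries were not part of the sham difference named for the choice, although earlier results of these data were known.

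The 2 relatives of the receptor were called in no comparison by edgeR or DESeq2. *Rtn4rl1* had 54.4, 64.4 and 64.8 CPM in young sham, 68.3, 67.7 and 47.5 in young ICH, 56.4, 50.1 and 53.4 in aged sham and 53.6, 53.9 and 64.0 in aged ICH. Its log2 difference after ICH was close to 0 in young tissue (95% interval -0.29 to 0.29) and 0.10 in aged tissue (-0.19 to 0.39). *Rtn4rl2* had 13.7, 15.6 and 17.8 CPM in young sham, 8.79, 15.6 and 6.65 in young ICH, 10.5, 11.9 and 11.1 in aged sham and 12.5, 9.65 and 10.8 in aged ICH. Young ICH replicate 2 stood at the level of the sham libraries and the other 2 below them. The log2 fold change of -0.60 ± 0.24 in young tissue missed the threshold (edgeR adjusted *P* = 0.108), although it met the study's own criterion of a fold change under 0.67 with an unadjusted *P* under 0.05, as 3.49% of all genes did, and without young ICH replicate 2 it was -1.02 (adjusted *P* = 0.0032) and without replicate 3 it was -0.36 (0.286). In aged tissue it was -0.02 (95% interval -0.56 to 0.51).

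*Lingo1*, which encodes a co-receptor of the Nogo receptor in neurons, had the largest fall of the set. Its CPM values were 235, 300 and 295 in young sham, 144, 181 and 110 in young ICH, 200, 182 and 180 in aged sham and 126, 126 and 123 in aged ICH. ICH lay below sham with no overlap at either age, as for 16.5% of all genes in young and 17.3% in aged tissue. The aged ICH libraries were within a few CPM of one another. The log2 fold change was -0.93 ± 0.15 (edgeR adjusted *P* = 0.00265) in young tissue, which is 0.524-fold, and -0.58 ± 0.15 (edgeR adjusted *P* = 0.0255) in aged tissue, which is 0.668-fold. The call in young tissue held under all 20 alternatives, with adjusted *P* between 9.2e-08 and 0.0207. The call in aged tissue held under 14 of 20, and was lost without aged ICH replicate 1 (adjusted *P* = 0.0878), aged ICH replicate 3 (0.0795), or the first (0.0901) or second (0.0621) aged sham library.

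The aged sham level of *Lingo1* (187 ± 11.2 CPM) was already below that of young sham (277 ± 36.4), a log2 difference of -0.56 given with no test. After ICH the ages stood at 145 ± 35.3 and 125 ± 1.59 CPM, and the difference between them was -0.21 (95% interval -0.53 to 0.11, edgeR adjusted *P* = 0.682). The change after ICH differed between the ages by 0.35 on the log2 scale (95% interval -0.10 to 0.81, unadjusted *P* = 0.117, edgeR), so a different response of the 2 ages was not shown.

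The median and the summed level of the pan-neuronal markers moved in the same direction as *Lingo1*, although single markers did not all fall in young tissue. Of 8 such markers, 1 was lower in young ICH (*Syt1*, the synaptic vesicle calcium sensor, -0.65, edgeR adjusted *P* = 0.00565, chosen after its value was seen) and 0 in aged ICH by edgeR (1 with DESeq2 and 1 at an unadjusted *P* under 0.05), with list medians of -0.16 and -0.20. Their summed level, led by *Snap25* of the vesicle fusion machinery, was 6512 to 7750 CPM in young sham, 4633 to 6225 in young ICH, 6287 to 6998 in aged sham and 5020 to 5799 in aged ICH. After removing group means, *Lingo1* followed that sum with *r* = 0.83 over the 12 libraries. The part of neuronal content in the *Lingo1* fall was not tested.

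On the list of 7 other co-receptors and receptors, 2 genes rose and 1 fell at both ages. *Pirb*, a receptor for Nogo that is also found on myeloid cells, rose by 1.76 ± 0.31 in young and 1.40 ± 0.30 in aged tissue on the log2 scale (edgeR adjusted *P* = 0.00375 and 0.0132). *S1pr2*, a sphingosine phosphate receptor, rose by 0.61 ± 0.14 and 0.76 ± 0.14 (adjusted *P* = 0.0118 and 0.008). The relative *Lingo2* changed by -0.48 ± 0.10 and -0.36 ± 0.10 (adjusted *P* = 0.00863 and 0.0387). *Ngfr* and *Tnfrsf19*, members of the TNF receptor family that act as partners of the receptor, were called at neither age by edgeR or DESeq2, with edgeR values from 0.05 to 0.18. All of these had a lower level than *Lingo1*: in young sham *Pirb* had 0.44 FPKM, *S1pr2* 0.374, *Lingo2* 2.67, *Ngfr* 0.672 and *Tnfrsf19* 13.6.

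Of the 3 antagonists of the receptor on the list, *Lgi1*, a secreted synaptic protein, fell in young tissue (-0.35 ± 0.11, edgeR adjusted *P* = 0.0392) and had -0.31 in aged tissue (edgeR adjusted *P* = 0.0735, DESeq2 adjusted *P* = 0.0417). Downstream, the 7 genes of the RhoA pathway split. The kinase gene *Rock1* rose by 0.48 ± 0.07 in young and 0.25 ± 0.07 in aged tissue (edgeR adjusted *P* = 0.00187 and 0.0348), and *Rock2* changed by -0.51 ± 0.10 and -0.38 ± 0.10 (adjusted *P* = 0.00529 and 0.0272). *Rhoa* itself rose in young tissue by 0.27 ± 0.08 (adjusted *P* = 0.032) and had 0.17 in aged tissue (adjusted *P* = 0.18).

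*Nrep* was lower in the aged groups throughout. Its CPM values were 70.6, 65.2 and 94.2 in young sham, 62.5, 59.5 and 56.2 in young ICH, 48.7, 42.5 and 38.5 in aged sham and 40.5, 28.9 and 37.1 in aged ICH. All 6 aged libraries lay below all 6 young ones, which is a description only, since the sham part of this was known when the gene was chosen. As a description, the log2 difference of aged sham from young sham was -0.83, the lowest of the set, with *Rtn4r* (-0.59), *Lingo1* (-0.56) and *Rtn4rl2* (-0.49) next. For aged ICH against young ICH the value was -0.74 ± 0.15 (0.599-fold, 95% interval -1.07 to -0.41), with no overlap between the groups, as for 6.42% of all genes in that direction. The sham difference named for the choice did not include the ICH libraries, although earlier results of these data were known.

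The age difference of *Nrep* in ICH tissue had an unadjusted *P* of 0.000384 and did not pass the adjusted threshold of edgeR (adjusted *P* = 0.15), at which 0.0558% of all genes were called. The adjusted *P* was 0.00163 with DESeq2 and 0.0274 with edgeR on the unfiltered table, and over all alternatives it ran from 0.00163 to 0.46. It met the study's fold change criterion with its unadjusted *P*, as did 3.52% of all genes. After ICH the values were -0.37 in young tissue, with no overlap, and -0.28 in aged tissue, both with no test. In young tissue 16.5% of all genes had such a fall with no overlap.

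*Gap43*, the growth-associated protein, fell in young tissue. It read 171, 159 and 134 CPM in young sham, 113, 103 and 121 in young ICH, 123, 158 and 119 in aged sham and 103, 133 and 105 in aged ICH. The young ICH libraries were all below the young sham libraries, as for 16.5% of all genes, and the aged groups overlapped. The log2 fold change was -0.47 ± 0.13 (edgeR adjusted *P* = 0.0316) in young tissue and -0.23 ± 0.13 (adjusted *P* = 0.291) in aged tissue, and the difference between the ages was 0.24 (95% interval -0.17 to 0.65, unadjusted *P* = 0.225, edgeR). The call in young tissue rested on small margins: it held under 12 of 20 alternatives and was lost without young ICH replicate 1 (adjusted *P* = 0.0692), 2 (0.0867) or 3 (0.0504) and without young sham replicate 1 (0.0983) or 2 (0.0979).

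*Stmn4* and *Basp1* were called in no comparison by edgeR, and *Stmn4* was called between the ICH groups by DESeq2. *Stmn4* had 175, 165 and 179 CPM in young sham, 198, 161 and 154 in young ICH, 147, 159 and 150 in aged sham and 132, 134 and 138 in aged ICH. The aged ICH libraries were the lowest 3 of the 12. Its log2 difference was -0.01 (95% interval -0.20 to 0.17) after ICH in young and -0.17 (-0.36 to 0.01) in aged tissue. Between the ICH groups it was -0.34 ± 0.08 with no overlap, as for 6.42% of all genes in that direction (unadjusted *P* = 0.00161, edgeR adjusted *P* = 0.215). DESeq2 gave an adjusted *P* of 0.0354. *Basp1* ranged from 191 to 300 CPM over the 12 libraries, with differences of -0.17 (95% interval -0.48 to 0.14) in young and 0.02 (-0.29 to 0.33) in aged tissue.

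On a list of 16 other growth cone and cytoskeleton genes, 1 rose and 6 fell in young tissue, and 1 rose and 3 fell in aged tissue. *L1cam*, an axonal adhesion molecule, changed by -0.54 ± 0.07 and -0.38 ± 0.07 (edgeR adjusted *P* = 0.00137 and 0.00749). *Map1b*, a microtubule-associated protein of growing axons, changed by -0.53 ± 0.11 and -0.50 ± 0.11 (adjusted *P* = 0.00695 and 0.014), and *Ncam1*, a neural adhesion molecule, by -0.29 ± 0.07 and -0.37 ± 0.07 (adjusted *P* = 0.0212 and 0.0104). The riser was *Tubb2b*, a tubulin of developing neurons, with 0.56 ± 0.11 and 0.54 ± 0.11 (adjusted *P* = 0.00695 and 0.0129). The other stathmins were not called by edgeR, and DESeq2 called *Stmn1* lower in aged tissue (adjusted *P* = 0.0358): *Stmn1*, *Stmn2* and *Stmn3* had -0.26, -0.16 and -0.18 in young tissue and -0.33, -0.06 and -0.10 in aged tissue. The list's median was -0.22 in young and -0.11 in aged tissue.

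*Sprr1a* was almost absent from young sham tissue, with 2, 9 and 4 counts in the 3 libraries, and had 28, 33 and 39 counts in young ICH. In aged tissue it had 15, 3 and 44 counts in sham and 41, 25 and 33 in ICH. In the young groups the 2 sets did not overlap, as for 18.5% of all genes in that direction, and the exact Poisson interval of the highest sham library (9 counts, 4.12 to 17.1) lay below that of the lowest ICH library (28 counts, 18.6 to 40.5). These intervals cover counting error only. In aged tissue the groups overlapped, since aged sham replicate 3, at 1.32 CPM, was the highest of all 12 libraries.

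The log2 fold change of *Sprr1a* was 2.73 ± 0.71 in young tissue (6.62-fold, 95% interval 1.17 to 4.28, edgeR adjusted *P* = 0.0216). The call was lost without young ICH replicate 3 (adjusted *P* = 0.0581), young sham replicate 1 (0.0714) or young sham replicate 3 (0.0684). In aged tissue the value was 0.64 ± 0.59 (95% interval -0.65 to 1.93, adjusted *P* = 0.517), and without aged sham replicate 3 it was 1.74 (adjusted *P* = 0.0826). The change after ICH differed between the ages by -2.09 ± 0.94 (unadjusted *P* = 0.0461), but not after adjustment over all genes (edgeR adjusted *P* = 0.99991), and without aged sham replicate 3 the difference was -0.99. By edgeR 0% of all genes passed that test of the difference, with 606 at an unadjusted *P* under 0.05 and 1 gene called by DESeq2. The ICH groups had 1.05 ± 0.213 and 1.01 ± 0.15 CPM, a log2 difference of -0.05 (95% interval -1.29 to 1.20).

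Markers of blood leukocytes moved with *Sprr1a*. The monocyte and macrophage markers, led by *Lyz2*, a lysozyme of myeloid cells, had 4 of 6 higher at both ages and summed to 17.3 to 25.1 CPM in young sham, 61.6 to 97.8 in young ICH, 22.0 to 64.7 in aged sham and 99.4 to 114 in aged ICH. The neutrophil markers, led by *S100a9*, a calcium-binding protein of neutrophils, summed to 10.1 to 12.5, 19.5 to 35.5, 14.4 to 24.0 and 35.9 to 50.2 CPM in the same order. Aged sham replicate 3 had the highest monocyte and neutrophil sums of the 6 sham libraries. With group means removed, *Sprr1a* followed the monocyte sum with *r* = 0.78 and the summed astrocyte markers, led by *Gfap*, the astrocyte filament protein, with *r* = 0.82 over the 12 libraries. The spread of *Sprr1a* within groups was widest in aged sham (SD 0.621 CPM), against 0.117 in young sham, 0.213 in young ICH and 0.150 in aged ICH. The 2 correlations were taken on log2 values, so these SDs do not measure the weight of a group in them. Aged sham also had the widest range of counts, 3 to 44, and can weigh heavily in both. *Sprr1a* ran against the summed keratinocyte markers, with *r* = -0.68, and -0.60 with group means removed. Of these, 0 of 3 tested were called by edgeR at either age (in aged tissue 1 was lower with DESeq2 and 1 at an unadjusted *P* under 0.05), their sums were 10.2 to 13.5, 9.22 to 12.2, 11.4 to 13.9 and 8.74 to 12.3 CPM, and involucrin (*Ivl*) was at 0 in 3 of the 4 groups. The other 8 genes of the small proline-rich family on the list had too few counts to be tested. The part of leukocyte, astrocyte or keratinocyte content in the *Sprr1a* rise was not tested.

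**Figure D3:**
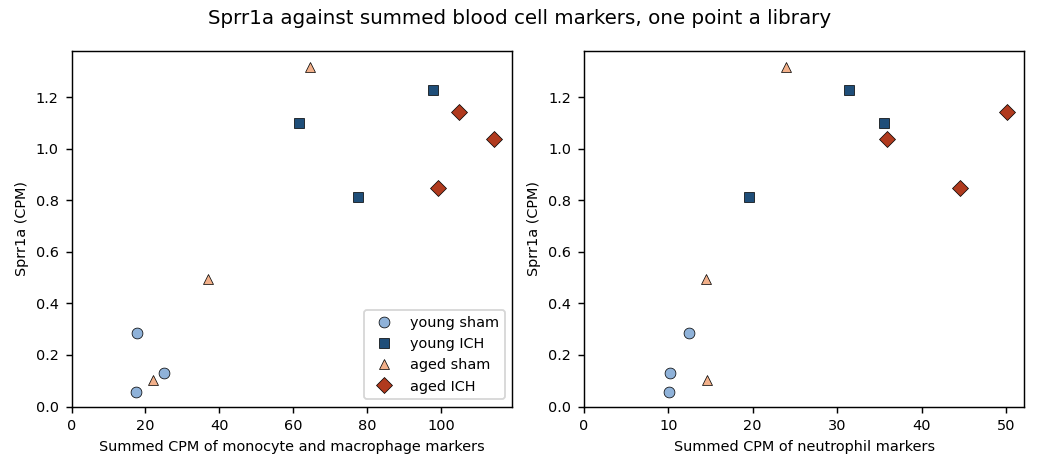
*Sprr1a* in CPM (vertical) against the summed CPM of monocyte and macrophage markers (left) and neutrophil markers (right), with 1 point a library and symbols by group. The aged sham library at 1.32 CPM of *Sprr1a* also had the highest marker sums of the 6 sham libraries, 64.7 CPM and 24.0 CPM.

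The transcription factors known from axon regeneration rose at both ages. Of 9 on the list, 8 rose in young and 7 in aged tissue, and the rest were called in neither direction by edgeR or DESeq2, with list medians of 0.56 and 0.65. *Atf3*, a stress-induced factor of injured neurons, rose by 2.64 ± 0.35 and 2.10 ± 0.33 on the log2 scale (edgeR adjusted *P* = 0.00147 and 0.00505). *Cebpd* rose by 2.09 ± 0.36 and 2.12 ± 0.35 (adjusted *P* = 0.00358 and 0.00587), and *Stat3* by 1.03 ± 0.16 and 0.93 ± 0.16 (adjusted *P* = 0.00224 and 0.00612). These factors are also induced in glia and leukocytes. *Jun*, a subunit of AP-1, rose by 0.83 in young tissue (adjusted *P* = 0.0039) and 0.85 in aged tissue (adjusted *P* = 0.00661), named after its value was seen because the *Sprr1a* stretch holds AP-1 matches. A link between *Jun* and the level of *Sprr1a* was not tested.

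Of 12 regeneration peptides and effectors, 4 rose and 2 fell in young tissue, and 4 rose and 1 fell in aged tissue. *Hspb1*, a small heat shock protein, rose by 2.44 ± 0.35 and 2.68 ± 0.34 (edgeR adjusted *P* = 0.00187 and 0.00316). *Tnfrsf12a*, a receptor induced by injury, rose by 1.81 ± 0.29 and 1.71 ± 0.29 (adjusted *P* = 0.00274 and 0.00604), and *Socs3*, a feedback inhibitor of STAT signaling that restrains axon growth, by 2.17 ± 0.40 and 1.81 ± 0.39 (adjusted *P* = 0.0046 and 0.0137). *Gal*, the peptide galanin, had 0.49 in young and -1.39 in aged tissue, with adjusted *P* of 0.736 and 0.426. Over all 8 related lists, 59 of 67 genes were tested: 17 rose and 14 fell in young tissue, and 15 rose and 7 fell in aged tissue. Of all tested genes 9.89% were called higher and 9.23% lower in young tissue, and 7.00% and 6.15% in aged tissue. The same shares stand beside the counts of each single list. The lists were chosen with earlier results of these data known.

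**Figure D4:**
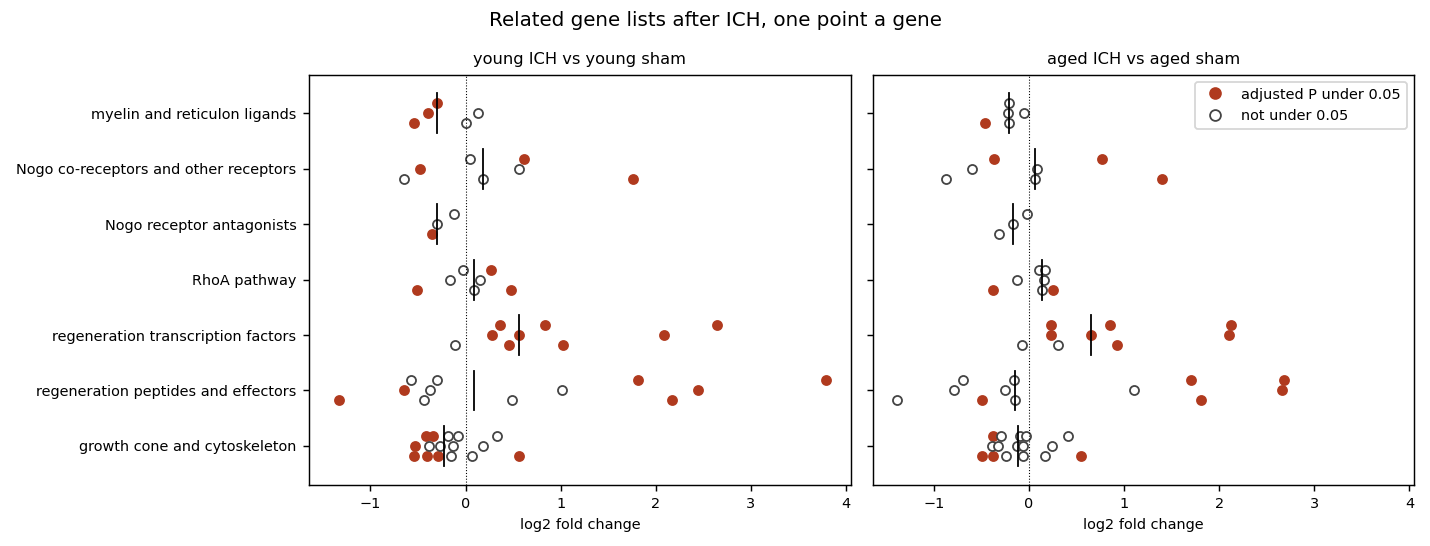
Log2 fold change after ICH of the tested genes of 7 related lists in young (left) and aged (right) tissue, with 1 point a gene. Filled points had an adjusted *P* under 0.05 with edgeR, and the vertical bar of a list is its median; the regeneration transcription factors had medians of 0.56 and 0.65, and the growth cone genes -0.22 and -0.11.

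Between aged ICH and young ICH 0 of the 10 genes and 0 of the 59 related genes passed edgeR's adjusted threshold, at which 12 of 21495 genes (0.0558%) were called. At an unadjusted *P* under 0.05 edgeR had 2050 genes, among them *Nrep* and *Stmn4* of the 10 and 9 of the 59 related genes, 8 of which were lower. DESeq2 called these 2 of the 10 genes and 2 of the related genes, beside 189 of the 22088 genes to which it gave an adjusted *P* (0.856%). The latter were *Dpysl3*, a growth cone phosphoprotein (log2 difference -0.52, DESeq2 adjusted *P* = 0.00168), and *Marcksl1*, a relative of *Basp1* in its membrane and actin functions (-0.51, DESeq2 adjusted *P* = 0.0418), named after their values were seen. For the difference in response between the ages, 0 of the 8 genes passed with edgeR or DESeq2, and 1 of them, *Sprr1a*, had an unadjusted *P* under 0.05.

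As a description of the age difference without injury, 9 of the 10 genes had a negative log2 difference of aged sham from young sham, as 48.3% of all tested genes did, with a median of -0.26 against 0.00886 for all genes. In 5 of them (*Rtn4r*, *Rtn4rl2*, *Lingo1*, *Nrep* and *Stmn4*) the aged libraries were all below the young ones, as for 11.2% of all genes. *Sprr1a* was the exception at 2.04, which was 0.94 without aged sham replicate 3. The set was chosen with this difference known, so the counts describe it and no more. The 2 comparisons of ICH with sham use these same sham libraries.

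Within groups, part of the set varied together from library to library. With group means removed, *Rtn4r* had *r* = 0.93 with *Lingo1*, 0.92 with *Basp1* and 0.86 with *Rtn4rl2* over the 12 libraries, while *Gap43* ran against *Basp1* (*r* = -0.85). *Rtn4r*, *Basp1*, *Lingo1* and *Rtn4rl2* followed the summed cortical neuron markers (*r* = 0.96, 0.90, 0.86 and 0.84). In the same order they ran against the summed striatal markers (*r* = -0.77, -0.84, -0.54 and -0.75) and the summed choroid plexus markers (*r* = -0.76, -0.60, -0.71 and -0.72). With group means kept, the striatal values were -0.01, -0.33, 0.43 and -0.11, and the choroid plexus values -0.48, -0.41, -0.36 and -0.43. Over 10 libraries, with means kept and without those farthest from the median sum, the striatal values were 0.11, -0.02, 0.47 and 0.25. The choroid plexus values were then -0.05, -0.01, 0.05 and 0.07. The negative values therefore did not hold in every form of the correlation. Again with group means removed, *Rtn4rl1* had *r* = 0.84 with the cortical, -0.42 with the striatal, -0.88 with the choroid plexus and 0.96 with the pan-neuronal sum. *Rtn4r*, *Basp1*, *Lingo1* and *Rtn4rl2* had 0.90, 0.80, 0.83 and 0.65 with the pan-neuronal sum, so they also followed neuronal markers in general. *Gap43* followed the summed oligodendrocyte precursor markers (*r* = 0.92) and the summed striatal markers (*r* = 0.75). The cortical sums were 1165 to 1475 CPM in young sham, 784 to 1514 in young ICH, 982 to 1201 in aged sham and 856 to 1224 in aged ICH, with 0 of 6 markers called after ICH at either age (0 also with DESeq2 and at edgeR's unadjusted *P* under 0.05) and list medians of -0.42 and -0.10. The striatal sums were 1774 to 3024, 513 to 1725, 1513 to 2640 and 325 to 1912 CPM, with 0 of 9 called by edgeR or DESeq2 (1 lower at each age at an unadjusted *P* under 0.05) and medians of -0.95 and -1.13. These points share library, depth and dissection. The part of neuronal, cortical, striatal, choroid plexus or oligodendrocyte precursor content in the differences of the set was not tested.

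**Figure D5:**
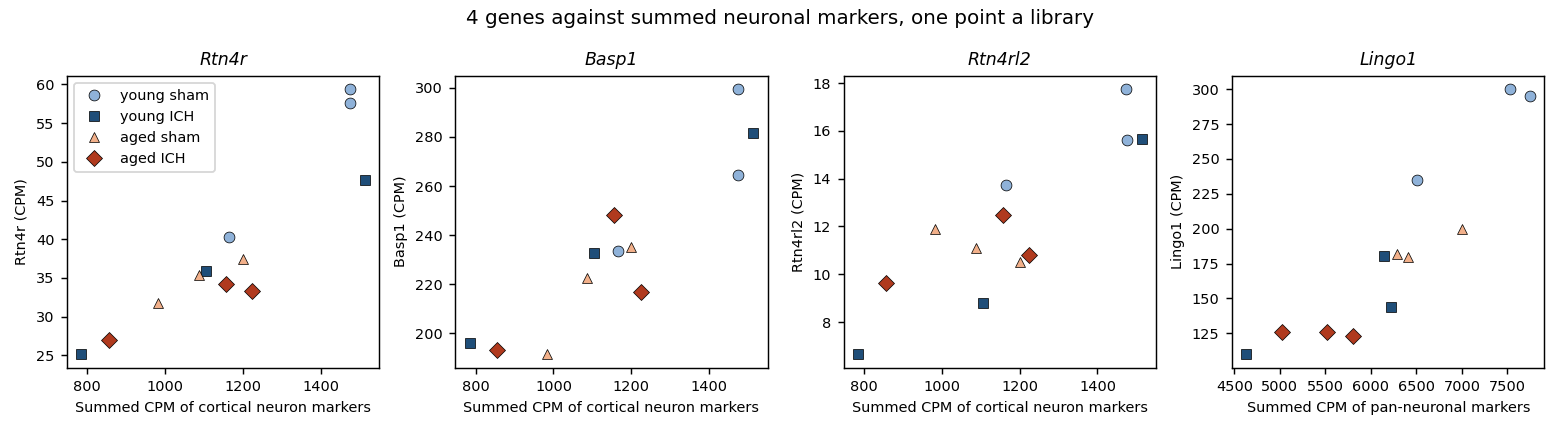
*Rtn4r*, *Basp1* and *Rtn4rl2* in CPM against the summed CPM of 6 cortical neuron markers, and *Lingo1* against that of 8 pan-neuronal markers, with 1 point a library, symbols by group and axes that do not start at 0. The lowest *Rtn4r*, *Rtn4rl2* and *Lingo1* values of the 12, 25.1, 6.65 and 110 CPM, belong to the young ICH library with the lowest marker sums, 784 and 4633 CPM.

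The genes whose log2 CPM followed each member most closely over the 12 libraries, by Pearson's *r*, were searched over all tested genes. *Lingo1* was most like *Sptan1* (*r* = 0.99), a spectrin of the axonal skeleton, and *Cdh10* (0.99), a neuronal cadherin. *Rtn4r* was most like *Fhl2* (0.98) and *Syn1* (0.97), a synapsin of synaptic vesicles, and *Rtn4* like *Emc7* and *App* (both 0.98). *Sprr1a* was most like *Cd300ld* (0.97) and *Clec4e* (0.96), receptors of myeloid cells. *Nrep* was most like *Cops5* (0.95) and *Hsp90ab1* (0.93), *Gap43* like *1700037H04Rik* and *Pgrmc1* (both 0.95), and *Stmn4* like *Cmpk1* (0.96) and *Rtl8b* (0.93). *Basp1* was most like *Gfra2* (0.96) and *Myh3* (0.95), *Rtn4rl1* like *Bhlhe22* (0.94), and *Rtn4rl2* like *Pde4a* and *Psmf1* (both 0.96). These correlations hold the differences between groups as well as those within them.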

How the data were processed

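RNA of perihematomal caudate putamen was sequenced as paired ends in 12 libraries (4 groups of 3). According to the methods of the study, reads were aligned to GRCm38.p6 with Hisat2 2.0.5 and assigned to genes with FeatureCounts 1.5.0-p3; no strand setting was given in those methods. The authors deposited raw counts per gene and FPKM values (fragments scaled by gene length and mapped reads) in 1 table, with their fold changes and P values, which were not used. Counts were analysed with edgeR 4.0.16 in R 4.3.3. Genes were kept with filterByExpr (minimum count 10), libraries were scaled by TMM (factors 0.954 to 1.04), and a quasi-likelihood model with 1 coefficient a group was fitted to all 12 libraries. P values were adjusted over the 21495 genes kept, and a gene was called at an adjusted P under 0.05. Intervals are 95%. CPM values used the scaled library sizes, and fold changes compare young ICH with young sham, aged ICH with aged sham, aged ICH with young ICH, and the change after ICH between the ages.

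Members and gene lists were chosen with earlier results of these data known. From the related lists, up to 3 called genes with the smallest P in each ICH comparison are named, from each marker list used the gene with the highest mean FPKM, and for each member the 2 genes with the highest Pearson correlation of log2 CPM (prior count 2); 1 such correlated gene and 1 marker list are not reported here. *Mag*, *Ngfr*, *Tnfrsf19*, *Stmn1*, *Stmn2*, *Stmn3*, *Syt1*, *Jun*, *Gal*, *Lingo4*, *Ivl*, *Dpysl3* and *Marcksl1* fall outside this rule and were named after their values were seen. Sequences of promoters came from RefSeq (GRCm38.p6) and gene positions from GENCODE vM21. FPKM served for levels between genes and, with a pseudocount of 1 or 0.1 and genes at 0.1 or more in 3 libraries, for an alternative fit with limma 3.58.1. Other alternatives were DESeq2 1.42.0, its size factors, no filter, a replicate block, only the 2 groups compared, the study's criterion (fold change over 1.5 or under 0.67, unadjusted P under 0.05) and each library left out. The edgeR and DESeq2 steps were tested on simulated data. Total counts of at least 28410896 per library set the precision: 1 read in the shallowest scaled library is 0.0339 CPM.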

Additional observations from a re-analysis of the deposited data

How the results depend on the processing

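Of the calls among the 10 genes, that of *Lingo1* in young tissue held under every one of its 20 alternatives. The number of genes that fell in young tissue was 3 and became 1 with limma on log2 FPKM at both pseudocounts. The number that fell in aged tissue was 2 and became 1 with no filter, with only the 2 groups compared and under the study's criterion, and 0 with limma at both pseudocounts. Between the ICH groups, 1 gene was lower with no filter and under the study's criterion and 2 with DESeq2, against 0, and for the difference between the ages 1 (*Sprr1a*) under the study's criterion. Of the related genes, 14 fell in young tissue, and 9 did with only the 2 groups compared and 2 under the study's criterion, under which 11 rose instead of 17. In aged tissue 7 fell, and 11 did with DESeq2, 4 with limma at both pseudocounts and 1 under the study's criterion. Between the ICH groups, 1 related gene was lower with no filter and 2 with DESeq2, and for the difference between the ages 1 (*Lingo4*) under the study's criterion. The causes were not tested.

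With 1 library left out at a time, the 10 genes gave 0 to 1 higher and 1 to 3 lower calls in young tissue and 0 to 2 lower calls in aged tissue, and the related genes 13 to 17 higher and 7 to 17 lower in young and 9 to 16 higher and 1 to 10 lower in aged tissue. Differences near 0 changed sign. *Rtn4rl1* in young tissue had 7.94e-07 with no filter, 0.0699 and 0.0729 with limma and 0.000955 with only 2 groups, *Stmn4* in young tissue 0.0666 and 0.0672 with limma, and *Rtn4rl2* in aged tissue 0.0362 and 0.0399 with limma. When a library was left out, *Rtn4rl1* in young tissue ran from -0.0882 to 0.153, *Stmn4* from -0.132 to 0.0569, *Rtn4rl2* in aged tissue from -0.126 to 0.0615 and *Basp1* in aged tissue from -0.077 to 0.104. Between the ICH groups *Rtn4r* ran from -0.407 to 0.0465, *Rtn4rl2* from -0.15 to 0.509, *Gap43* from -0.108 to 0.0856, *Sprr1a* from -0.202 to 0.0863 and *Basp1* from -0.23 to 0.035, and in the difference between the ages *Rtn4rl1* from -0.0518 to 0.189 and *Nrep* from -0.0877 to 0.214.

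The labels give each group the same replicate numbers and do not say whether these pair the libraries. The deviations of same-numbered libraries correlated from -0.45 to 0.23, above 0.1 in 5 of 18 pairs. Libraries with different numbers were not compared, so these values cannot decide whether the numbers pair them. With a replicate block, 1 gene instead of 2 fell in aged tissue, since *Rtn4* had an adjusted *P* of 0.0676, and over all genes 3502 instead of 4110 were called in young and 2464 instead of 2828 in aged tissue. Counts limit *Sprr1a* most, with 2 to 44 reads a library.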

Other observations

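Some marker lists whose levels are not given beside the 10 genes also moved. Oligodendrocyte precursor markers, led by *Gpr17*, had 1 of 4 lower by edgeR after ICH in aged tissue and 1 of 4 lower in aged ICH than in young ICH, with list medians of -0.55 and -0.59, while in young tissue the median was -0.12. Their summed level was 110 to 156 CPM in young sham, 104 to 118 in young ICH, 88.9 to 120 in aged sham and 66.2 to 78.2 in aged ICH, and the aged ICH libraries lay below the other 9. Neuroblast markers, led by *Cd24a*, had 1 of 6 higher and 1 of 6 lower in young tissue, and fibroblast markers, led by *Dcn*, 1 of 4 higher at both ages.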
